A study of Rattus norvegicus with 288 samples.

Results

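The genes described here encode the proteins of the mitochondrial ribosome. They were chosen by name alone, as every gene whose symbol begins with Mrpl or Mrps and a digit and that has a probe set assigned to no other symbol. There were 73 such genes among the 14218 genes with a single-symbol probe set, 46 of them named for the large subunit (Mrpl) and 27 for the small subunit (Mrps). They carried 97 of the 20832 single-symbol probe sets on the array. In each tissue a gene was represented by the brightest of its probe sets on average. All 73 had a mean log2 signal of at least 6 in bone marrow, heart and liver, so no gene was lost to a filter on low values.

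The mitochondrial ribosome translates the few messages of the mitochondrial genome, all of which encode subunits of the respiratory chain and the ATP synthase. Its RNAs are transcribed inside the organelle, whereas its proteins are encoded in the nucleus, made in the cytosol and imported. Many of its proteins have a counterpart in bacterial ribosomes and the others are particular to mitochondria, and tissues with much oxidative metabolism, such as the heart, hold many mitochondria. Transcription factors of the NRF1 and GABPA type, the latter binding an ETS motif, are textbook regulators of nuclear genes for mitochondrial proteins.

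Male Sprague-Dawley rats aged 7 to 8 weeks, each with an indwelling femoral vein cannula, received a first agent iv and, 30 min later, a second agent po. The first was 0.3 mg/kg of the mTOR inhibitor temsirolimus, or TEM_vehicle. The second was sunitinib at 5 mg/kg, its vehicle sterile water, sorafenib at 25 mg/kg, or its vehicle F68/PG/PEG400. Both oral drugs inhibit receptor tyrosine kinases. Rats were killed 1, 6 or 24 h after dosing, with 4 rats for each of the 8 treatments at each time. Each of the 96 rats gave femoral bone marrow, the apex of the heart and liver, on 1 Affymetrix rat genome array per tissue. Each agent was given once. Arrays have no read depth, and the 4 rats per group limit the precision.

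The deposited values are log2 signals. A change is a difference of log2 signals given with its standard error, and a gene was said to rise or fall when its limma p was under 0.05 after Benjamini-Hochberg adjustment over the 14218 genes. Each oral drug alone was compared with its own vehicle, 4 rats against 4, and temsirolimus alone with TEM_vehicle over both oral vehicles, 8 against 8. The shares of all genes that passed in a comparison are given beside the counts of mitochondrial ribosomal protein genes. All tissues are mixtures of cells, and a smaller number of cells of one type cannot be told apart from less RNA per cell.

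Tissues were checked on marker genes. The mean of 14 hepatocyte markers had its median at 14.69 in liver, 5.20 in marrow and 6.26 in heart. The mean of 14 cardiac muscle markers had its median at 13.66 in heart against 4.98 in marrow and 5.74 in liver, and 11 erythroid markers had theirs at 12.90 in marrow. Some arrays stood apart. The heart array of rat 6M68 (Temsirolimus+Sorafenib, 1 h) had a hepatocyte marker level of 14.31. In the marrow of rat 4M45 (Temsirolimus+F68/PG/PEG400, 6 h) the mean of the 73 genes was 9.25, the lowest of the 96 marrows. In the liver of rat 7M78 (TEM_vehicle+Sunitinib, 24 h) it was 9.14, against 10.41 to 10.47 in the other 3 livers of its group. Within a tissue, counts for 1 drug alone that rest on these arrays are given with and without them. The tests of interaction that hold these arrays are given with all arrays only. The arrays also fall into a first and a last pair of rats in each group by the number in the array's name, here called sets A and B. In marrow the median gene of the 73 was higher in set A by 0.16, 0.17 and 0.14 at 1, 6 and 24 h, and 45, 51 and 42 of the 73 passed the test for being higher, beside 21.7%, 31% and 29.3% of all genes that passed in either direction. In heart the median was 0.06, -0.12 and -0.11, with 3 of the 73 higher at 1 h and 32 and 15 lower at 6 and 24 h, beside 2.69%, 13.9% and 4.5%. Each group held 2 rats of each set, and the set was a term of the fit. A set can hold more than 1 array number, and at 24 h rats 8M95 and 8M96, given sorafenib alone, carry a number of their own in every tissue, so that within set B this number cannot be told apart from sorafenib. A fit with the number in place of the set is given beside the results it changes.

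**Figure D1:**
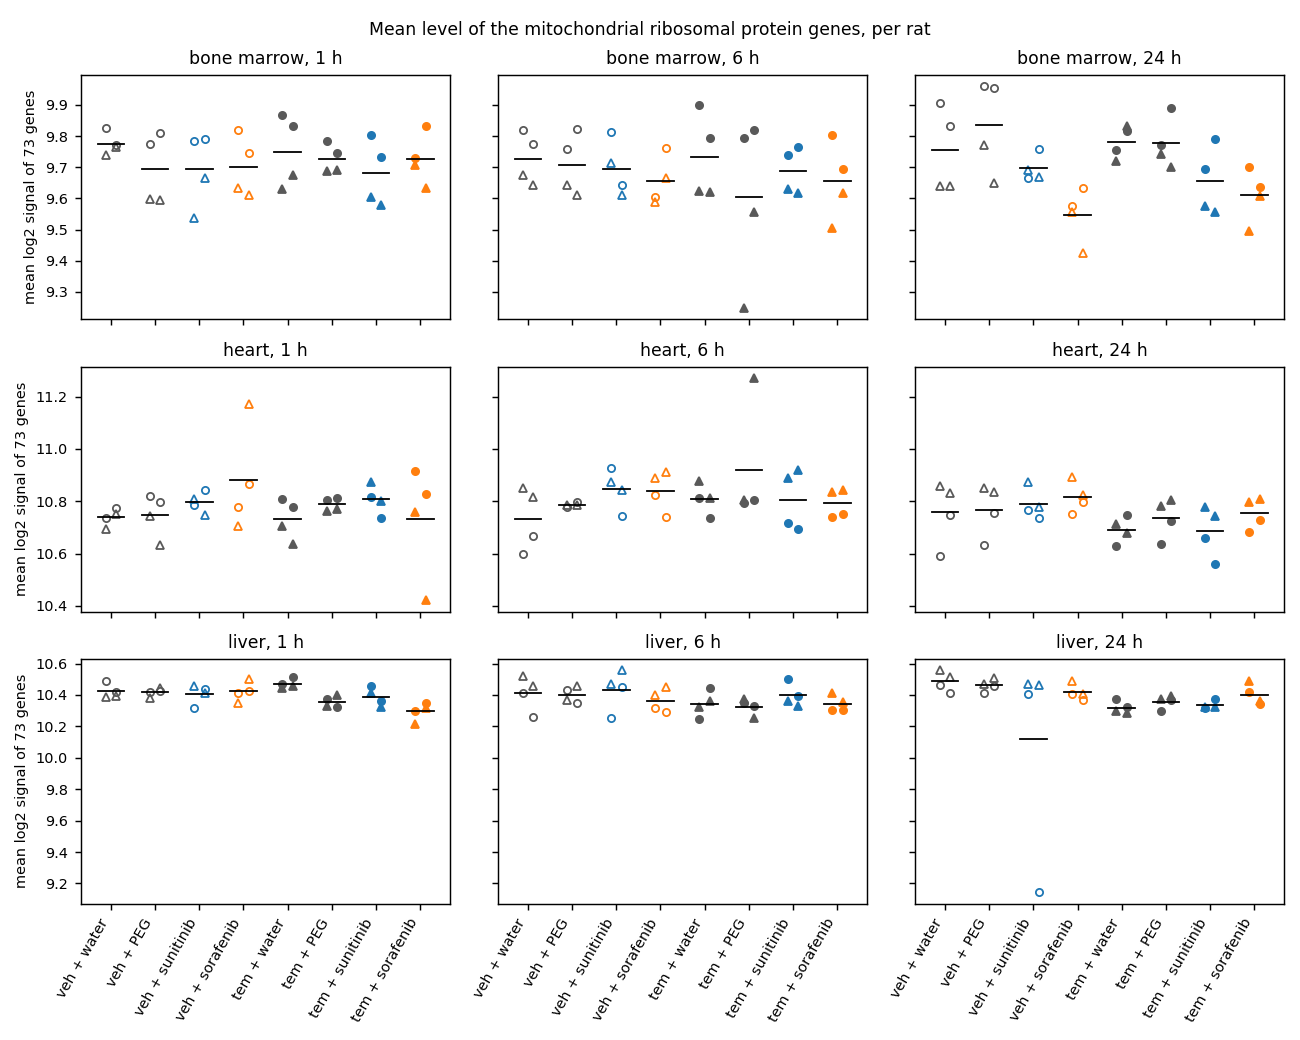
Mean log2 signal of the 73 mitochondrial ribosomal protein genes in each rat (y axis), by treatment (x axis; veh is TEM_vehicle, tem temsirolimus, PEG the vehicle F68/PG/PEG400), tissue (row) and time (column). Open symbols are rats given TEM_vehicle, filled symbols temsirolimus, circles set A, triangles set B, and lines group means; at 24 h in marrow the 4 rats given sorafenib alone lie between 9.42 and 9.64, below their 4 controls at 9.65 to 9.96, and the liver of rat 7M78 lies alone at 9.14.

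Promoters are described first, and their part in the changes below was not tested. RefSeq (assembly GRCr8) gave the promoters of 59 of the 73 genes, and all motif counts were made in the 250 bases before the start. TGCGCA, the core of the NRF1 motif, which reads the same on both strands, occurred in 14 of the 59 (23.7%) against 6.57% of all 27457 promoters. CCGGAAG, the ETS motif bound by GABPA, searched on both strands, occurred in 13 of the 59 (22%) against 7.74%. TGCGCA or CCGGAAG was present in 23 of the 59 (39%) against 13.4%. The YY1 motif AAGATGGCG was found in 1.69% of the 59 and 0.736% of all promoters, the E-box CACGTG in 6.78% and 5.79%, GGGCGG in 45.8% and 32.4%, and CCAAT in 44.1% and 34.3%, all on both strands. Of the 28 genes that fell after sorafenib in marrow (below), 20 had a promoter here, with TGCGCA in 6 (30%) and CCGGAAG in 1 (5%). Of the 39 promoters of genes that did not pass, 8 held TGCGCA (20.5%) and 12 held CCGGAAG (30.8%). These are descriptions of letters in a window, and no test was made. Genes that passed and genes that did not are not genes with and without a fall. All 73 had negative estimates in that comparison, and 57 passed without the marrow of rat 4M45 (below). Of the 6 promoters with TGCGCA among the 28 genes, those of the 3 largest falls are printed. The motif in all 3 was thus fixed by the choice. They run 5′ to 3′ on the strand of the gene, ending at the base before its start, with TGCGCA in capitals.
Mrpl32, chr17:55260401-55260650 (+): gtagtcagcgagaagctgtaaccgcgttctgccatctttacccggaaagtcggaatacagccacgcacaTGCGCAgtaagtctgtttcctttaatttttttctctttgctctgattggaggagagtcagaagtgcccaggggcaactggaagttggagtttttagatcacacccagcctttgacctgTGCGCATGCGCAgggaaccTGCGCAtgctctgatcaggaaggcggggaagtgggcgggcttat
Mrps18b, chr20:2842756-2843005 (+): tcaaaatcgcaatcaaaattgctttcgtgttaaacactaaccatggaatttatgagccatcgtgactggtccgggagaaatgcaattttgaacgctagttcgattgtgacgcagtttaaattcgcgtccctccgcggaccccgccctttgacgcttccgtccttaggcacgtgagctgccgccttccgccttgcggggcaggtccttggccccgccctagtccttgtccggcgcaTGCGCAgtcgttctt
Mrpl22, chr10:42845660-42845909 (+): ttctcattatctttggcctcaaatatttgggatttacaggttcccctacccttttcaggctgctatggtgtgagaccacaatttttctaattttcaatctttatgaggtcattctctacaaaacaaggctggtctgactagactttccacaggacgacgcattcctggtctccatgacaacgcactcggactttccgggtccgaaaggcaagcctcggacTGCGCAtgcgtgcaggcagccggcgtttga
Mrpl32 held 4 copies, the last beginning 44 bases before the start. Mrps18b and Mrpl22 held 1 each, beginning 15 and 30 bases before the start. Mrpl32 and Mrpl22 are large subunit proteins with bacterial counterparts, and Mrps18b is one of several mitochondrial relatives of a bacterial small subunit protein.

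Mitochondrial ribosomal protein transcripts fell in bone marrow 24 h after sorafenib alone. Of the 73 genes 28 fell and none rose, against 3.31% of all genes that fell. The median change of the 73 was -0.29, 18.2% below the controls on the linear scale, and that of all genes 0.00. All 73 estimates were negative, from -0.55 to -0.08, whereas 49.8% of all genes had a negative one. At an unadjusted p under 0.05 there were 56. By subunit, 17 of 46 Mrpl genes fell, with a median of -0.26, and 11 of 27 Mrps genes, with a median of -0.32. For 24 of the 73 all 4 rats given sorafenib lay below all 4 controls, which held for 7.98% of all genes.

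The mean of the 73 genes in a rat was 9.96, 9.95, 9.77 and 9.65 in the controls given F68/PG/PEG400 and 9.58, 9.64, 9.56 and 9.42 after sorafenib. The lowest control lay just above the highest treated rat. Rats given sterile water, which are not in the comparison, had 9.64, 9.64, 9.91 and 9.83. Against both oral vehicles together, 29 genes fell, beside 3.21% of all genes, 25 of them among the 28, with a median of -0.25. Within array set A, where treated and control arrays carry the same number, the median change was -0.34 with 73 negative estimates, and within set B, where they do not, -0.20 with 71. With the array number in place of the set the median was -0.29 and 11 fell, beside 0.886% of all genes that passed in either direction.

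The largest falls among the genes that passed were those of Mrpl19, Mrps7, Mrpl16, Mrps35, Mrpl47 and Mrps22. Mrpl19, a large subunit protein with a bacterial counterpart, had log2 signals of 9.29, 9.26, 9.03 and 8.93 in the controls and 8.55, 8.78, 8.59 and 8.42 after sorafenib. The groups did not overlap, and the change was -0.54 ± 0.13 (limma, adjusted p = 0.00471). Mrps7, which lies in the head of the small subunit, had 9.81, 9.79, 9.44 and 9.27 in the controls and 9.09, 9.17, 9.06 and 8.99 after sorafenib, again without overlap, a change of -0.50 ± 0.11 (adjusted p = 0.00194). Mrpl16, a large subunit protein conserved from bacteria, had 9.60, 9.61, 9.31 and 9.14 in the controls and 9.0, 9.13, 8.89 and 8.69 after sorafenib. Its highest treated rat lay only just below its lowest control, and the change was -0.49 ± 0.07 (adjusted p = 7.33e-06).

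Mrpl47, the counterpart of the bacterial large subunit protein L29, had 8.77, 8.73, 8.43 and 8.31 in the controls and 8.11, 8.11, 8.21 and 7.92 after sorafenib, without overlap, a change of -0.47 ± 0.08 (adjusted p = 0.000142). Mrps22, a small subunit protein particular to mitochondria, had 9.82, 9.91, 9.62 and 9.40 against 9.23, 9.32, 9.27 and 9.08, without overlap, a change of -0.46 ± 0.07 (adjusted p = 2.55e-05). A second Mrps22 probe set with a mean signal of 5.00 gave 0.10 ± 0.10 and did not pass. Mrps35, also of the small subunit, had 9.16, 9.38, 9.13 and 8.89 against 8.97, 8.88, 8.66 and 8.13, and its groups overlapped, with a change of -0.48 ± 0.14 (adjusted p = 0.0376). The largest estimate of all, -0.55 for Mrps9, did not pass (adjusted p = 0.0543).

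The other 22 genes that fell had changes between -0.45 and -0.21. In the large subunit they were Mrpl12, which corresponds to the bacterial stalk protein L7/L12, Mrpl2 and Mrpl3, which correspond to core proteins of the bacterial large subunit, and Mrpl17, Mrpl22, Mrpl28, Mrpl32, Mrpl35, Mrpl39, Mrpl41, Mrpl42, Mrpl43, Mrpl44 and Mrpl49. In the small subunit they were Mrps6, Mrps15, Mrps18b, Mrps26, Mrps27, Mrps28 and Mrps34. Mrps30 also fell, and its protein, despite its symbol, lies in the large subunit of mammalian mitochondrial ribosomes. Mrpl12 changed by -0.45 and Mrpl43 by -0.21. The estimates nearest to 0 among the 73 were those of Mrpl53 at -0.08, Mrps12, a protein of the decoding site, at -0.08, and Mrpl4 at -0.10, none of which passed. Where a gene had more than 1 probe set, 19 of the 24 further probe sets in this comparison had the same sign, and no pair of probe sets passed in opposite directions.

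**Figure D2:**
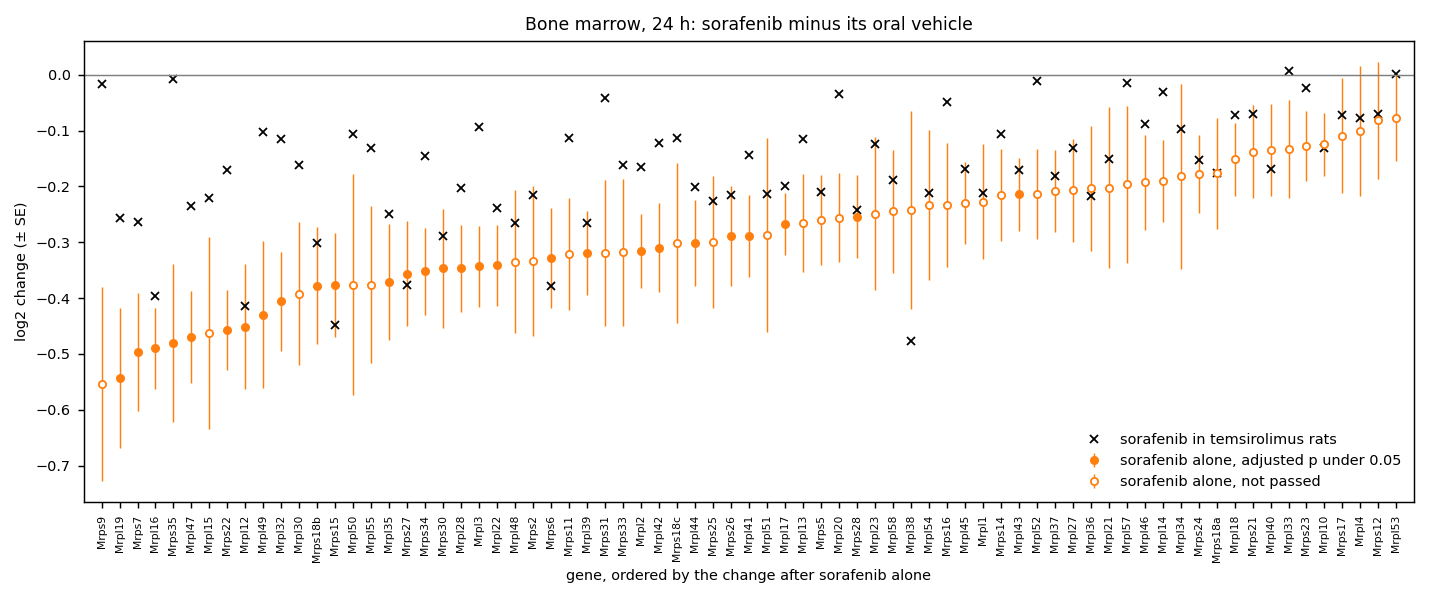
Change in log2 signal (y axis, with SE) of each of the 73 genes (x axis, ordered by the change) in bone marrow at 24 h, sorafenib minus F68/PG/PEG400. Filled points are the 28 that passed, open points the 45 that did not, and crosses the change in rats that had temsirolimus first; all 73 points and 71 of the crosses lie below 0.

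At the earlier times no gene of the 73 passed after sorafenib alone. At 1 h, where 0% of all genes passed, there was a median of -0.00 and 1 gene at an unadjusted p under 0.05, Mrpl28 at -0.16 (adjusted p = 1.00). At 6 h, where 0.0211% of all genes passed, there was a median of -0.06 and 6 genes at an unadjusted p under 0.05, of which Mrpl17 at -0.14 had the smallest (adjusted p = 0.495).

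The rats that had temsirolimus before sorafenib share no array with the comparison above. In them 5 of the 73 fell at 24 h against temsirolimus with F68/PG/PEG400, beside 1.09% of all genes, and all 5 were among the 28. The count was 2 without the array set terms or with the mean of all probe sets, and ranged from 1 (without rat 6M71) to 7 (without rat 6M72). The shares of all genes at these settings are not given here, so a changed count may be common to other genes. The median was -0.16 and 71 estimates were negative. Mrps15, the counterpart of a bacterial small subunit protein that binds ribosomal RNA early in assembly, had log2 signals of 9.0, 9.24, 9.09 and 9.14 without sorafenib and 8.78, 8.74, 8.43 and 8.73 with it. The groups did not overlap, and the change was -0.45 ± 0.09 (adjusted p = 0.00460), beside -0.38 for sorafenib alone. Mrpl12 had 10.12, 10.29, 10.13 and 10.15 against 9.85, 9.77, 9.60 and 9.81, without overlap, a change of -0.41 ± 0.11 (adjusted p = 0.0450). Mrpl16 had 9.48, 9.52, 9.40 and 9.49 against 9.29, 9.05, 9.01 and 8.96, without overlap, a change of -0.40 ± 0.07 (adjusted p = 0.000997).

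Mrps6, the counterpart of a bacterial small subunit protein, changed by -0.38 ± 0.09 (adjusted p = 0.0134) in the rats that had temsirolimus first. Mrps27, an RNA-binding protein of the small subunit, changed by -0.38 ± 0.09 (adjusted p = 0.0253), and its groups overlapped slightly, with 8.20, 8.33, 8.57 and 8.67 without sorafenib and 8.20, 7.91, 7.87 and 8.28 with it. The difference between the sorafenib changes with and without temsirolimus had a median of 0.10 over the 73 genes at 24 h. The F test of the interaction over the 3 times passed for none (0% of all genes), and 6 of the 73 were at an unadjusted p under 0.05, beside 850 of all 14218 genes.

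Other genes of mitochondrial translation fell with them. Of 16 translation factors and their partners 5 fell, Tufm, the elongation factor that brings tRNAs to the ribosome, by 0.43, Slirp, which stabilises mitochondrial messages, by 0.36, and Mtfmt, which formylates the initiator tRNA, by 0.36, with Mrrf and Cox18. The median of the 16 was -0.26. Of 13 mitochondrial aminoacyl-tRNA synthetases 3 fell, Yars2 by 0.61, Tars2 by 0.36 and Fars2 by 0.35. Of 6 ribosomal subunits under other symbols Dap3 fell, by 0.30. Of 23 assembly factors Fastkd2 and Mrm2 fell, by 0.48 and 0.35, and of 18 genes of mitochondrial DNA and biogenesis Tfam, which packages and helps to transcribe that DNA, fell by 0.31. None of these genes rose.

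Of 49 genes of the respiratory chain and ATP synthase 5 fell, with the largest changes for Ndufa4 (-0.25), Atp5mc3 (-0.25) and Atp5f1a (-0.24). Their median was -0.15, and 47 of the 49 estimates were negative. Of 16 proliferation genes none passed, with a median of 0.01 and 1 gene at an unadjusted p under 0.05. Of the marker lists, 1 gene passed, Alas2, the first enzyme of haem synthesis in red cell precursors, which rose by 0.35 while the other 10 erythroid markers did not pass. The mean of 8 neutrophil markers ranged from 12.55 to 12.71 in the controls and from 12.60 to 12.91 after sorafenib, that of 11 erythroid markers from 12.74 to 12.89 in the controls and from 12.77 upwards after sorafenib, with an overlap, and that of 11 T and NK cell markers from 6.91 to 7.15 and from 7.07 to 7.29. The mean of 9 macrophage markers ranged from 9.50 to 9.62 and from 9.62 to 9.74, with 7 of 9 estimates positive and none past the test. That of 9 endothelial markers ranged from 7.75 to 8.15 in the controls and from 7.59 to 7.96 after sorafenib, and in the rats that had temsirolimus first from 7.83 to 7.87 and from 7.49 to 7.89. Of these markers Emcn, a surface protein of small vessels, had -0.57 (limma, adjusted p = 0.0584) after sorafenib alone and fell by 0.73 in the rats that had temsirolimus first. Kdr, a receptor of VEGF, had -0.45 and -0.43 and did not pass. The others did not pass in either comparison. After sorafenib alone Tek (-0.35), Tie1 (-0.15), Vwf (-0.01) and Esam (-0.01) lay below 0, and Cldn5 (0.03), Pecam1 (0.06) and Flt1 (0.08) above it. In the rats that had temsirolimus first, Flt1 (0.12) and Vwf (0.03) lay above 0 and the rest below. The part of these cells in the result was not tested.

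The count of 28 depends on the spread estimated from all 96 marrows. Without the marrow of rat 4M45, which enters only that spread, 57 of the 73 fell beside 9.38% of all genes, including all 28, at the same median. The counts in the other lists then were 5 of 6 subunits under other symbols, 11 of 16 translation factors, 6 of 13 synthetases, 6 of 23 assembly factors, 7 of 18 biogenesis genes and 22 of 49 respiratory chain genes. Of the markers, Emcn (-0.57) and Kdr (-0.45) then fell and Alas2 (0.35), Slc4a1 (0.25), Cd8a (0.27), Serpina1 (0.33) and Myl2 (0.28) rose. In the rats that had temsirolimus first, 16 fell without that array, beside 3.43% of all genes, and 15 of them were among the 57, while Emcn and Kdr fell. With a renewed quantile normalization 12 fell, without the array set terms 13, and without 1 rat of the comparison between 15 (rat 2M17 or 8M96) and 31 (rat 2M24). Without rat 2M18 or 8M89 there were 16. The shares of all genes that fell at these settings are not given here, so a lower or higher count may be common to other genes. Of the 6 genes with the largest falls, Mrps7, Mrpl16 and Mrpl47 passed under every alternative tried. Mrpl19 (-0.47, adjusted p = 0.0852) and Mrps35 (-0.41, adjusted p = 0.158) did not pass after the renewed normalization, Mrps22 did not with the mean of its probe sets (-0.18, adjusted p = 0.109), and Mrps35 did not without the marrow of rat 8M96 (-0.32, adjusted p = 0.358). With the array number in place of the set Mrpl19 (-0.56, adjusted p = 0.0654) and Mrps35 (-0.27, adjusted p = 0.697) did not pass.

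After temsirolimus or sunitinib alone no gene of the 73 passed in marrow. For temsirolimus 0%, 0% and 0.352% of all genes passed at 1, 6 and 24 h, and 1, 22 and 4 of the 73 were at an unadjusted p under 0.05. The medians were 0.01, -0.04 and -0.01, and the smallest p values were those of Mrps5 at 1 h (0.11, adjusted p = 1.00), Mrps23 at 6 h (0.14, adjusted p = 0.157) and Mrpl16 at 24 h (0.12, adjusted p = 0.442). The comparison at 6 h holds the marrow of rat 4M45, and within the F68/PG/PEG400 groups alone, where it is 1 of 4 treated marrows, 6 of the 73 rose and 22 fell, beside 5.96% and 11.9% of all genes. Markers of other cells passed there too, among them Fabp4 of adipocytes (-1.64), Cd79b of B cells (-1.05), the red cell genes Rhag (-1.17) and Slc4a1 (-0.96), and Cd68 of macrophages (0.66), and their part was not tested. Without rat 4M46, 7 of the 73 rose and 18 fell over both vehicles, beside 21.1% of all genes that passed, and without rat 4M45 none of the 73 passed. For sunitinib, 0%, 0% and 0.00703% of all genes passed at 1, 6 and 24 h. The medians were -0.08, -0.04 and -0.07, with 4, 2 and 3 genes at an unadjusted p under 0.05, of which Mrps35 at 1 h (-0.41, adjusted p = 1.00), Mrps15 at 6 h (-0.21, adjusted p = 0.886) and Mrps6 at 24 h (0.23, adjusted p = 0.927) had the smallest.

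**Figure D3:**
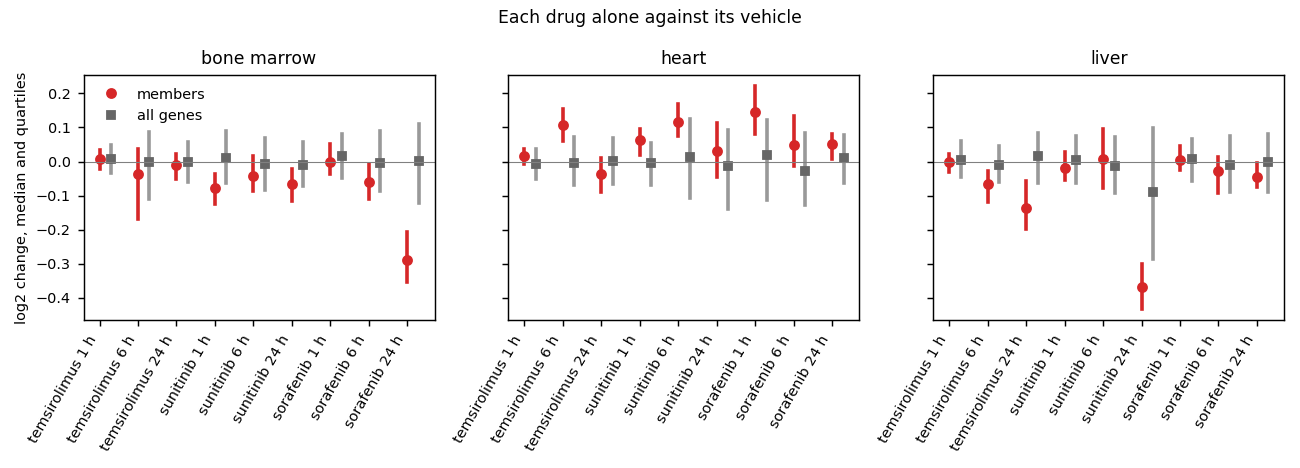
Median and quartiles of the log2 change (y axis) over the 73 genes (red circles) and over all 14218 genes (grey squares) for each drug alone and time (x axis) in the 3 tissues. The medians farthest from 0 are those of sorafenib in marrow at 24 h (-0.29) and of sunitinib in liver at 24 h (-0.37), the latter -0.04 without the liver of rat 7M78.

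In liver 24 h after temsirolimus alone, 5 of the 73 mitochondrial ribosomal protein genes, Mrpl49, Mrps22, Mrps27, Mrps11 and Mrpl39, fell and none rose, beside 2.3% of all genes that fell. The median of the 73 was -0.14 and that of all genes 0.01, with 65 negative estimates and 26 genes at an unadjusted p under 0.05. Within array set A the median was -0.10 and within set B -0.17. For 7 of the 73 all 8 treated rats lay below all 8 controls, against 0.992% of all genes.

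Mrpl49, a large subunit protein particular to mitochondria, had a lowest, median and highest log2 signal of 9.06, 9.38 and 9.54 in the 8 livers given TEM_vehicle and 8.19, 8.74 and 8.88 after temsirolimus. The groups did not overlap, and the change was -0.71 ± 0.12 (limma, adjusted p = 7.44e-05). Mrps22 had 9.80, 9.94 and 10.03 against 9.28, 9.42 and 9.59, without overlap, a change of -0.51 ± 0.08 (adjusted p = 6.71e-06), while its second, dim probe set gave -0.06 ± 0.08. Mrps27 had 9.13, 9.27 and 9.48 against 8.55, 8.90 and 9.09, without overlap, a change of -0.44 ± 0.09 (adjusted p = 0.000612). Its other probe sets gave -0.38 and -0.57.

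Mrps11, the counterpart of a bacterial protein in the platform of the small subunit, had 10.14, 10.27 and 10.36 against 9.71, 9.98 and 10.07, without overlap, a change of -0.30 ± 0.08 (adjusted p = 0.0252). Mrpl39, a large subunit protein, had 8.95, 9.08 and 9.22 against 8.63, 8.74 and 9.11, with overlap, a change of -0.29 ± 0.08 (adjusted p = 0.0201). Mrpl49, Mrps22, Mrps27 and Mrpl39 were also among the 28 genes that fell in marrow after sorafenib, a comparison of other rats.

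Of the related genes in liver, 3 of 23 assembly factors fell, Fastkd2 (-0.37), Mrm2 (-0.32) and Tfb1m (-0.32), which modifies the RNA of the small subunit. Mgme1, a nuclease of mitochondrial DNA, fell by 0.33 as 1 of 18 biogenesis genes, and Ndufs3, a complex I subunit, by 0.28 as 1 of 49 respiratory chain genes, of which 43 had negative estimates. None of 16 translation factors, 13 synthetases or 6 subunits under other symbols passed. Proliferation genes fell more, 6 of 16 with a median of -0.71, among them Cdk1 (-1.28), Ccna2 (-1.25) and Mki67 (-1.21). Their mean level ranged from 7.02 to 8.75 in the TEM_vehicle livers and from 6.55 to 7.85 after temsirolimus. The 14 hepatocyte markers had a median change of 0.00 with none past the test. The part of dividing cells in the result was not tested.

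The liver of rat 7M78 is not in this comparison but widens the spread estimated from all 96 livers. Without it, 28 of the 73 genes fell, including all 5, beside 5.54% of all genes, at the same median. The next in size were Mrps28 (-0.31), Mrpl28 (-0.26) and Mrpl35 (-0.25), and 16 of 49 respiratory chain genes, 4 of 16 translation factors and 9 of 16 proliferation genes then fell. With a renewed quantile normalization 16 of the 73 fell, and with the sterile water or the F68/PG/PEG400 rats alone 1 and 2. The shares of all genes that fell at these settings, and without single rats, are not given here. A lower or higher count may thus be common to other genes. Without the liver of rat 3M35 there were 3, and without that of rat 4M48, a treated liver with the lowest Mrpl49, Mrps11 did not pass (-0.26, adjusted p = 0.120). Mrps11 also did not pass without rat 2M17, 2M24 or 3M35, and Mrpl39 did not without rat 3M35 or 4M47 (adjusted p = 0.0699 and 0.0608). Mrpl49, Mrps22 and Mrps27 passed whichever rat was left out.

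The rats that had an oral drug in both arms give temsirolimus a second comparison, in which the controls hold the liver of rat 7M78. With it 7 of the 73 rose and 3 fell, beside 5.98% and 1.88% of all genes, with a median of 0.11. Without it 2 rose, Mrpl14 (0.31) and Mrpl36 (0.16), and 10 fell, beside 1.3% of all genes that rose and 2.16% that fell, with a median of -0.06. Mrpl49 (-0.47), Mrps27 (-0.43), Mrps22 (-0.39), Mrpl39 (-0.26) and Mrps11 (-0.18) were among the 10, so all 5 genes that fell after temsirolimus alone fell here too. These controls include rats 8M95 and 8M96, and with all livers and the array number in place of the set 1 of the 73 passed, beside 0.668% of all genes.

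After sunitinib alone in liver at 24 h the count rested on 1 array. With all 4 treated livers 43 of the 73 genes fell, beside 7.92% of all genes, and the median was -0.37 against -0.09 for all genes. Without the liver of rat 7M78 none of the 73 and none of the 14218 genes passed in limma, 1 of the 73 was at an unadjusted p under 0.05, and the median was -0.04. Mrpl47 had 9.16, 8.40, 8.56 and 8.55 in the controls and 8.40, 6.73, 8.44 and 8.51 after sunitinib, the 6.73 being rat 7M78. Its change was -0.65 ± 0.17 (adjusted p = 0.0418) with that array and -0.22 without it. Mrpl52, a large subunit protein particular to mitochondria, had 10.94, 10.91, 11.09 and 10.87 against 10.73, 9.24, 10.92 and 10.63, a change of -0.57 with the array and -0.19 without. Mrps15 (-0.56), Mrps35 (-0.53), Mrpl23 (-0.52) and Mrpl30 (-0.52) followed. In rats that had temsirolimus first, sunitinib gave none of the 73 past the test at 24 h, beside 0.00703% of all genes, with 1 at an unadjusted p under 0.05.

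**Figure D4:**
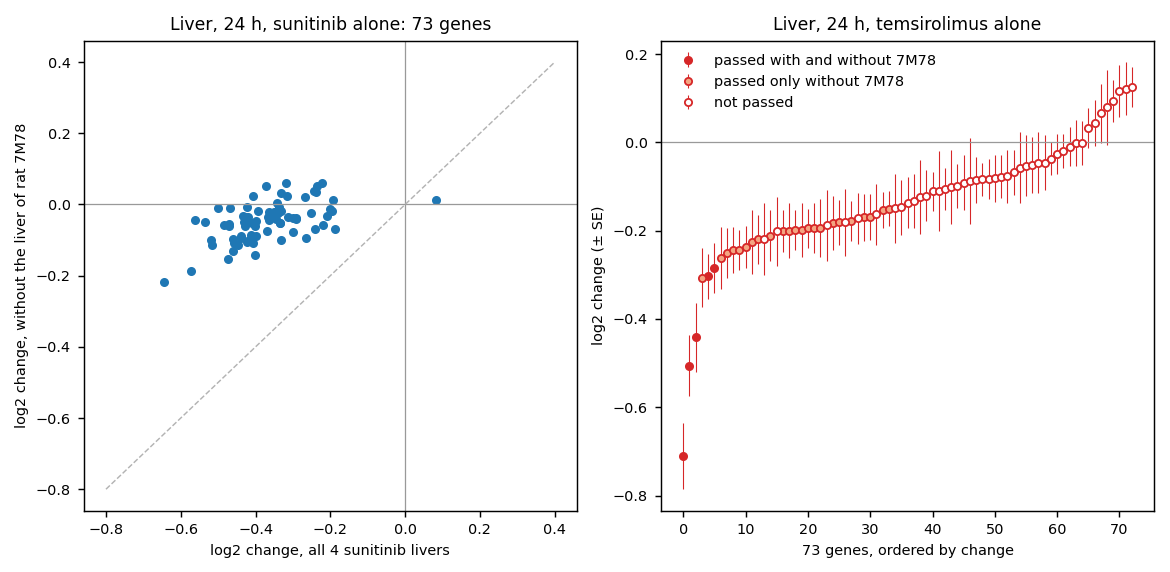
Left, log2 change of the 73 genes in liver at 24 h after sunitinib alone with all arrays (x axis) and without the liver of rat 7M78 (y axis), with a dashed line of equality; the median moves from -0.37 to -0.04. Right, log2 change (y axis, with SE) after temsirolimus alone, without that liver, of the 73 genes in order; dark points are the 5 that passed with and without it, pale points the 23 that passed only without it.

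At the other times and after sorafenib no gene of the 73 passed in liver. For temsirolimus alone at 1 and 6 h, where 0% of all genes passed at both, the medians were -0.00 and -0.07, with 0 and 5 genes at an unadjusted p under 0.05 and Mrpl38 first at both, at 0.15 (adjusted p = 1.00) and -0.25 (adjusted p = 1.00). For sunitinib alone at 1 and 6 h, where 0% and 0.12% of all genes passed, the medians were -0.02 and 0.01, with 0 and 3 genes at an unadjusted p under 0.05, Mrpl3 at -0.14 (adjusted p = 1.00) and Mrpl47 at 0.51 (adjusted p = 0.355) having the smallest. For sorafenib alone at 1, 6 and 24 h, where 0%, 0.225% and 0.0563% of all genes passed, the medians were 0.00, -0.03 and -0.04, with 0, 1 and 0 genes at an unadjusted p under 0.05. The smallest p values were those of Mrpl15 at 1 h (-0.14, adjusted p = 1.00) and Mrps22 at 6 h (-0.22, adjusted p = 0.766) and 24 h (-0.17, adjusted p = 0.92).

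In heart 4 genes passed in 4 comparisons, 1 in each, when the brightest probe set stood for each gene. Mrpl36, the counterpart of a small bacterial large subunit protein, rose 1 h after sorafenib alone, beside 0.598% of all genes. It had 10.57, 10.36, 10.27 and 10.14 in the controls and 10.69, 10.59, 10.55 and 11.03 after sorafenib. The lowest treated heart lay below the highest control, and the change was 0.38 ± 0.11 (limma, adjusted p = 0.0412). Without the array set terms it did not pass (0.38, adjusted p = 0.0638), nor without rat 2M19, 2M20, 8M85 or 8M92 (0.27 without the last). Without the heart of rat 6M68, which enters only the spread, 5 of the 73 passed. The share of all genes that passed at that setting is not given here, so the higher count may be common to other genes. The median of the 73 was 0.15 with 63 positive estimates, 0.01 within array set A and 0.28 within set B. The mean of the 14 hepatocyte markers ranged from 6.02 to 7.76 in the controls and from 6.08 to 6.79 after sorafenib, with 14 of 14 estimates negative, and with that level as a covariate Mrpl36 passed (0.38, adjusted p = 0.0389). With the array number in place of the set, which sets apart the array of rat 8M92, it did not (0.27, adjusted p = 0.239), and the median of the 73 was 0.03. Among related genes Slirp rose by 0.42, Chchd1, a small subunit protein under another symbol, by 0.35 and Cox5a by 1.09, and Ppargc1a, a coactivator of mitochondrial biogenesis, fell by 0.59.

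Mrps31, a small subunit protein particular to mitochondria, rose 6 h after sunitinib alone, beside 1.11% of all genes. It had 9.44, 9.47, 9.58 and 9.67 in the controls and 9.78, 9.70, 9.85 and 9.73 after sunitinib, without overlap, a change of 0.23 ± 0.06 (limma, adjusted p = 0.0364). It did not pass after a renewed quantile normalization (0.14, adjusted p = 0.262), without the array set terms (adjusted p = 0.0607) or without rat 1M3, 1M10, 7M75, 7M76 or 7M81. The median of the 73 was 0.12 with 68 positive estimates, 0.21 within set A and 0.02 within set B. The genes Mtrf1, Mtrf1l, Iars2, Tfb2m, Ngrn and Ssbp1 of the other lists rose as well, by 0.38, 0.33, 0.34, 0.34, 0.34 and 0.28. All 11 erythroid markers had negative estimates, with a mean level of 7.78 to 8.34 in the controls and 7.26 to 8.12 after sunitinib, and none passed.

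Mrpl15, a large subunit protein with a bacterial counterpart, rose 24 h after sunitinib alone, beside 1.03% of all genes. It had 12.32, 12.37, 12.12 and 12.30 in the controls and 12.42, 12.40, 12.72 and 12.42 after sunitinib, without overlap, a change of 0.22 ± 0.06 (limma, adjusted p = 0.0430). It did not pass after a renewed quantile normalization (0.18, adjusted p = 0.0735), without the array set terms (adjusted p = 0.0719) or without rat 1M5, 1M11, 7M77, 7M78 or 7M83, the last being the highest heart (0.15 without it). Of the other lists Ndufb8 and Sdhd rose, by 0.34 and 0.31, and Noa1, an assembly factor, fell by 0.30, while all 14 hepatocyte markers had positive estimates, with levels from 6.01 to 7.87 in the controls and 6.14 to 8.64 after sunitinib. With that level as a covariate Mrpl15 passed (0.23, adjusted p = 0.0255). Mrpl15 has 1 probe set. For the 18 genes with more, each of the 20832 single-symbol probe sets was also fitted by itself. In this comparison 7 of their 24 further probe sets then passed, and 1 of the 18 brightest. Of the 24, 9 had the sign of the brightest, and no pair passed in opposite directions. In rats that had temsirolimus first, the changes of Mrpl36, Mrps31 and Mrpl15 in the matching comparisons were -0.13, 0.01 and 0.02, and none passed. The comparison for Mrpl36 holds the heart of rat 6M68, and its change without that heart is not given here.

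Mrps2, the counterpart of a bacterial small subunit protein, fell in heart 24 h after temsirolimus alone, beside 0.239% of all genes. Its lowest, median and highest signals were 9.44, 9.61 and 9.87 in the controls and 9.02, 9.33 and 9.51 after temsirolimus, with overlap, a change of -0.31 ± 0.07 (limma, adjusted p = 0.0260). It did not pass with the mean of its probe sets (-0.14, adjusted p = 0.510), after a renewed quantile normalization (-0.28, adjusted p = 0.0503), in the F68/PG/PEG400 rats alone (-0.23) or without any 1 of 7 rats, with changes from -0.30 to -0.26. In rats that had an oral drug in both arms, which are other animals, it changed by -0.30 ± 0.07 (adjusted p = 0.0298). Yars2, the mitochondrial tyrosyl-tRNA synthetase, fell by 0.32, and Mcm6, of the proliferation list, by 0.49.

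The other comparisons of 1 drug in heart gave no gene of the 73 past the test. They were temsirolimus at 1 and 6 h (0.0141% and 0.183% of all genes), sunitinib at 1 h (0%) and sorafenib at 6 and 24 h (2.98% and 0.352%). The genes at an unadjusted p under 0.05 numbered 0, 30, 0, 9 and 2. The smallest p values were those of Mrps23 (0.09, adjusted p = 1.00) and Mrpl32 (0.25, adjusted p = 0.112) for temsirolimus, Mrpl52 (0.21, adjusted p = 1.00) for sunitinib and Mrps35 (0.28, adjusted p = 0.14) and Mrpl4 (0.21, adjusted p = 0.582) for sorafenib. The 30 genes at 6 h after temsirolimus went with a median of 0.11 and 65 positive estimates. There the 14 hepatocyte markers had a median change of 2.46, with all estimates positive and 1 past the test, and their mean level ranged from 5.94 to 6.45 in the controls and from 5.98 to 11.29 after temsirolimus. With that level as a covariate none of the 73 passed and their median was 0.15. The treated heart of rat 4M46 had a mean of 11.27 over the 73 genes, against 10.79 to 10.81 in the other 3 of its group. Without that rat the median was 0.05 and none passed, beside 0.0211% of all genes, and without rat 4M45 it was 0.14 and 9 rose, beside 2.7% of all genes that passed.

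Whether a drug changed a gene differently in the 3 tissues was tested with an F test over times and tissues, with the rat as a block. For temsirolimus 2 of the 73 passed, beside 0.675% of all genes. Mrps22 (adjusted p = 0.000248) had -0.51 in liver, -0.10 in heart and 0.03 in marrow at 24 h. Mrps27 (adjusted p = 0.0353) had -0.44, -0.16 and 0.05. For sorafenib 2 passed, beside 1.14% of all genes, and at 24 h in marrow, heart and liver Mrps22 (adjusted p = 0.0133) had -0.46, 0.08 and -0.17 and Mrpl16 (adjusted p = 0.0361) -0.49, 0.10 and 0.00. For sunitinib Mrpl47 (adjusted p = 0.0189) and Mrpl28 (adjusted p = 0.0381) passed, beside 0.661% of all genes, and neither passed without the liver of rat 7M78. Without 1 rat the counts of the 3 tests ranged from 1 to 4 for temsirolimus, from 0 (without rat 2M17, 2M18 or 8M96) to 2 for sorafenib and from 0 (without rat 1M3, 1M5, 1M11 or 7M78) to 28 (without rat 7M77) for sunitinib. The shares of all genes that passed at these omissions are not given here, so a changed count may be common to other genes. Mrpl16 after sorafenib did not pass without any 1 of 7 rats (adjusted p from 0.0751 to 0.160), and Mrps22 did not without rat 2M17, 2M18 or 8M96. Mrps27 after temsirolimus did not pass in 15 of 48 such omissions (adjusted p up to 0.137), and Mrps22 passed in all 48. Without the liver of rat 7M78 4 passed for temsirolimus and 8 for sorafenib, beside 1.57% and 2.13% of all genes. Without the marrow of rat 4M45 and the liver of rat 4M48 10 passed for sunitinib and 4 for sorafenib, beside 4.4% and 2.46%.

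No gene of the 73 passed the F test of the interaction of sunitinib or of sorafenib with temsirolimus in any tissue, where 0% of all genes did in all 6 tests. At an unadjusted p under 0.05 there were 1 and 6 of the 73 in marrow, 2 and 19 in heart and 16 and 1 in liver. Of all 14218 genes, 445 and 850 were under that limit in marrow and 1492 and 1920 in heart. In liver 919 of all genes were for sunitinib, and the number for sorafenib is not given here. The oral vehicles also gave none, beside 0%, 0% and 0.0352% of all genes in marrow, heart and liver. At an unadjusted p under 0.05 there were 3, 0 and 0 of the 73, beside 639, 1039 and 377 of all genes.

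Rats given both vehicles show the levels without a drug. Heart had the highest, and marrow the lowest, levels for most of the 73 genes. These comparisons used the same probe set in all tissues and the 24 vehicle rats, each with 3 tissues, and only differences of 1 gene between tissues were made. Heart exceeded marrow for 67 of the 73 genes and lay below it for 4, beside 55.4% and 37.3% of all genes, and the median difference was 1.03 against 0.23 for all genes. Liver exceeded marrow for 60 and lay below it for 9, beside 59.8% and 34.3%, with a median of 0.70 against 0.34. Heart exceeded liver for 50 and lay below it for 16, beside 41.2% and 48.7%, with a median of 0.32 against -0.07. The authors appear to have scaled each tissue by itself, so the median over all genes is the level to read these against.

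Mrpl16 had 9.06, 9.22 and 9.61 as its lowest, median and highest log2 signal in the vehicle marrows, 10.69, 10.91 and 11.17 in the livers and 11.29, 11.56 and 11.73 in the hearts. The tissues did not overlap, and heart exceeded marrow by 2.30 ± 0.04 (limma, adjusted p = 2.85e-106). Mrpl38 (2.19), Mrpl15 (2.14) and Mrpl12 (2.09) followed in that pair. The genes that passed with lower signals in heart than in marrow were Mrps12 (-0.22), Mrps26 (-0.16), Mrpl53 (-0.16) and Mrpl33 (-0.13). Between liver and marrow the largest differences were those of Mrpl15 (2.27), Mrps7 (1.84), Mrpl16 (1.66) and Mrps28 (1.58), and the most negative those of Mrpl33 (-0.50), Mrps26 (-0.43), Mrpl21 (-0.35) and Mrpl45 (-0.27).

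Mrps6 set heart apart from liver. It had 8.51, 8.75 and 8.98 in the livers, 8.71, 8.94 and 9.40 in the marrows, which overlapped the livers, and 10.59, 11.02 and 11.36 in the hearts, which overlapped neither. Heart exceeded liver by 2.26 ± 0.05 (adjusted p = 1.86e-88), followed by Mrpl47 (1.87), Mrpl13 (1.46) and Mrpl45 (1.37). Mrpl52 went the other way, with 10.54, 10.80 and 11.11 in the livers above 9.34, 9.63 and 10.09 in the hearts, a difference of -1.19 ± 0.05 (adjusted p = 4.69e-55), and Mrps33 (-0.88), Mrpl22 (-0.85) and Mrpl10 (-0.72), the base of the ribosomal stalk, were also higher in liver.

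**Figure D5:**
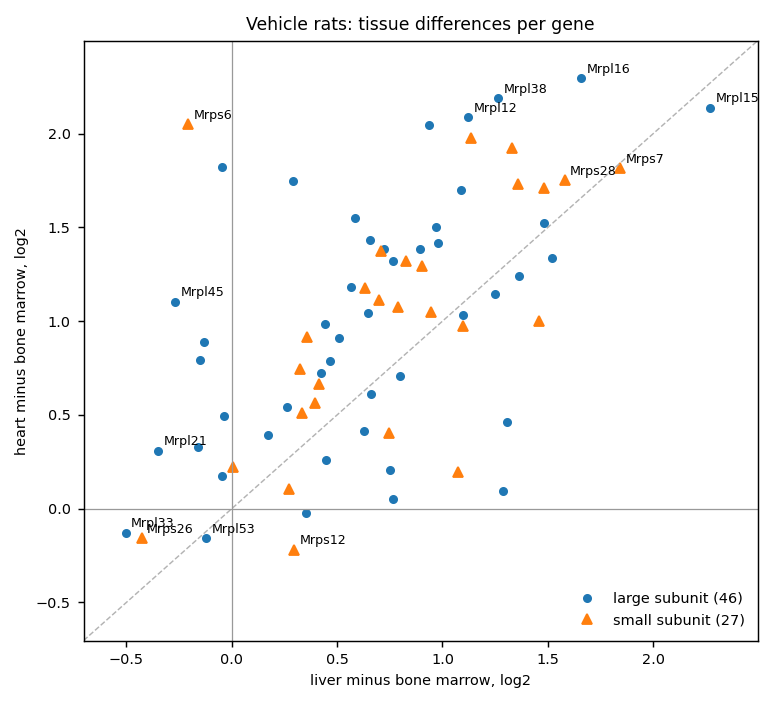
Difference between heart and bone marrow (y axis, log2) against that between liver and bone marrow (x axis, log2) for the 73 genes in vehicle rats. Circles are the 46 Mrpl and triangles the 27 Mrps genes, the dashed line marks equal differences; most points lie above 0 on both axes, Mrpl16 is highest on the heart axis (2.30) and Mrpl15 farthest right (2.27).

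Among vehicle rats of 1 tissue the genes varied about as other genes did. The median SD over 24 rats was 0.13 in marrow, 0.12 in heart and 0.12 in liver, and over all genes 0.14 in each. The most variable were Mrps35 in marrow (0.31), Mrps6 in heart (0.21) and Mrpl47 in liver (0.30), and the steadiest Mrps23 (0.07), Mrpl17 (0.07) and Mrpl36 (0.08).

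Between times 1, 0 and 3 of the 73 differed in marrow, heart and liver of vehicle rats, where the time cannot be told apart from the hour of the day and the numbers in the arrays' names. In marrow 1 passed the F test, beside 0.281% of all genes: Mrpl17 (adjusted p = 0.0116), with means of 11.36 ± 0.06, 11.35 ± 0.07 and 11.53 ± 0.10 (SD, n = 8) at 1, 6 and 24 h. In heart none passed, beside 2.41% of all genes, with 5 of the 73 at an unadjusted p under 0.05, beside 1959 of all genes. In liver 3 passed, beside 4.89% of all genes. Mrps22 (adjusted p = 0.00731) had 9.99 ± 0.15, 9.67 ± 0.15 and 9.93 ± 0.08. Mrpl42 (adjusted p = 0.0352), a large subunit protein, had 11.03 ± 0.12, 10.81 ± 0.23 and 11.07 ± 0.09. Both were lowest at 6 h, whereas Mrpl47 (adjusted p = 0.0349) had 8.16 ± 0.23, 8.27 ± 0.27 and 8.59 ± 0.25, with its highest mean at 24 h. Mrpl17 in marrow did not pass without rat 1M6 or 2M18, and in liver none passed without rat 1M9. Of 24 omissions Mrpl47 did not pass in 10 and Mrpl42 in 8. Without the liver of rat 7M78, which enters only the spread, 12 passed in liver, beside 11.5% of all genes, and after a renewed quantile normalization 9, beside 7.87%.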

How the data were processed

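The authors deposited log2 signals made from the scanned arrays by RMA, which corrects the background, normalizes quantiles and summarises the probes of a probe set; its version is not given in the sources used here. They were used as deposited. Within a tissue all arrays have nearly the same quantiles, and the tissues differ. Samples were grouped by the agents, time and tissue of their labels. Of 31099 probe sets 20832 had 1 symbol in the platform annotation, 436 had several and 9831 were not listed; the last 2 kinds were left out. The probe set with the highest mean in the tissue stood for a gene, which left 14218 genes.

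The model, in limma 3.58.1 (R 4.3.3), held a mean for each of the 24 groups of a tissue and, at each of the 3 times, an offset between the array sets, with moderated variances and Benjamini-Hochberg adjustment. Tissues were compared in 1 fit of all arrays with the rat as a block, since each rat gave 3 tissues; residuals of a rat's heart and liver had a median correlation of 0.13, of heart and marrow 0.0954 and of liver and marrow 0.105, over 96 rats. Dosing took 2 days, with 2 rats of a group on each, and whether the array sets are these days is not given in the sources used here. p-values measure the spread between rats. Genes were named by size of change, up to 6 rising and 6 falling in a comparison of 1 drug, or the smallest p where none passed. The members, lists and tests were chosen with earlier results of these data known. On simulated data for sorafenib in marrow at 24 h (14218 genes), 26% of changes of -0.3 and 80% of -0.5 were recovered.

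Alternatives were omission of genes with a mean signal under 6, quantile normalization repeated within a tissue or over all arrays, no array set terms, the mean of a gene's probe sets, each oral vehicle alone, a hepatocyte covariate and an N2 covariate for marked marrow arrays, omission of single arrays and of each rat, and no rat block. Added after the data were seen were both oral vehicles as the control of sorafenib in marrow, the tissue fits without the liver of rat 7M78, the array number in place of the set for the drug comparisons within a tissue, and the alternatives for the 3 comparisons in rats given a second drug. Promoter sequences are from RefSeq (GRCr8). Figures were drawn with matplotlib 3.10.9 in Python 3.11.15.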

Additional observations from a re-analysis of the deposited data

Results flagged for a closer look

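Single rats far from the other 3 of their group were sought with Dixon's ratio, the gap to the nearest rat over the range of the group. For the mean level of the 73 genes 2 of 72 groups passed the limit, where chance alone gives about 1 in 20. For the named genes 6 of 54 did, a number not to be set against chance, since the genes were named for their changes in these groups and 4 of the 6 are 1 liver. The heart of rat 4M46 (Temsirolimus+F68/PG/PEG400, 6 h) had a mean of 11.27 against 10.79 to 10.81 in the others (ratio 0.97), and the liver of rat 7M78 (TEM_vehicle+Sunitinib, 24 h) 9.14 against 10.41 to 10.47 (0.952). The same liver was low for Mrpl47 (6.73 against 8.40 to 8.51, ratio 0.94), Mrps15 (8.12 against 10.14 to 10.26, 0.944), Mrpl23 (8.91 against 10.53 to 10.70, 0.909) and Mrpl30 (8.51 against 10.01 to 10.21, 0.883). The heart of rat 7M83 was high for Mrpl15 24 h after sunitinib (12.72 against 12.40 to 12.42, ratio 0.936), and the liver of rat 4M48 low for Mrpl49 24 h after temsirolimus with F68/PG/PEG400 (8.19 against 8.71 to 8.76, 0.907).

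Changes that differed between tissues by the limma F test, with Benjamini-Hochberg adjusted p, were those of Mrps22 (0.000248) and Mrps27 (0.0353) after temsirolimus, lower in liver at 24 h, of Mrpl47 (0.0189) and Mrpl28 (0.0381) after sunitinib, which rest on the liver of rat 7M78, and of Mrps22 (0.0133) and Mrpl16 (0.0361) after sorafenib, lower in marrow at 24 h.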

How the results depend on the processing

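Of the counts recomputed under alternatives that keep all rats or leave out a named array, 282 equalled the reported count or lay within 1.5 times it, and 51 did not. The 282 include reported counts of 0 that stayed at 0, so they do not measure how firm the other counts are. Of the single genes, 2 changed sign, 45 lost and 4 gained significance and 486 did neither. Counts below are genes of the 73 that passed, with the reported count in brackets, and causes were not tested unless the array concerned is in the comparison. They stand without the share of all genes that passed at the same setting, which moved as well. For sorafenib in marrow at 24 h, 3.31% of all genes fell as reported and 9.38% without marrow 4M45. A changed count is therefore not a result about the 73 genes alone. After a renewed quantile normalization there were 12 for sorafenib in marrow at 24 h (28), 16 for temsirolimus (5) and 0 for sunitinib (43) in liver at 24 h, 0 for temsirolimus in heart at 24 h (1) and for sunitinib at 6 h (1), 4 for sorafenib at 1 h (1), and for time 0 in marrow (1) and 9 in liver (3); Mrps35 after sorafenib in temsirolimus marrows turned from -0.01 to 0.0178, and it ranged from -0.0546 to 0.0346 when single rats were left out. Without array set terms there were 13 for sorafenib in marrow at 24 h, 2 for sorafenib in temsirolimus rats (5), 22 for sunitinib in liver at 24 h, and in heart 0 for sunitinib at 6 and 24 h (1 each) and for sorafenib at 1 h. With the mean of all probe sets there were in heart 0 for temsirolimus and 3 for sunitinib at 24 h, 2 for sorafenib at 1 h and 1 at 6 h (0), in liver 27 for sunitinib at 24 h and 5 for time, and 2 for sorafenib in temsirolimus marrows. A mean signal of at least 6 gave 3 for sorafenib in heart at 1 h, and the hepatocyte covariate 2 for sunitinib in heart at 24 h. With the array number in place of the set, an alternative chosen after seeing the data, there were 11 for sorafenib in marrow at 24 h, in heart 2 for temsirolimus at 6 h (0), 2 for sunitinib at 24 h and 0 for sorafenib at 1 h, and 1 for temsirolimus in livers of rats given an oral drug (10); Mrpl15 in liver 1 h after sorafenib turned from -0.14 to 0.0377.

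Without marrow 4M45 and liver 4M48 there were 57 for sorafenib, 1 for temsirolimus (0) and 16 for sorafenib in temsirolimus rats in marrow at 24 h, 2 for time in marrow, and between tissues 10 for sunitinib (2) and 4 for sorafenib (2). Without liver 7M78 there were 28 for temsirolimus and 0 for sunitinib at 24 h, 1 for sunitinib at 6 h (0), 12 for time, and between tissues 4 for temsirolimus (2), 0 for sunitinib and 8 for sorafenib. Without heart 6M68 there were 1 for temsirolimus at 6 h (0) and 5 for sorafenib at 1 h. In the F68/PG/PEG400 rats alone temsirolimus gave 28 in marrow at 6 h (0), 0 in heart and 2 in liver at 24 h, and in the sterile water rats 1 in liver. Quantiles over all arrays gave between tissues 4 for temsirolimus, 1 for sunitinib and 8 for sorafenib. Without the rat as a block, the paired fit of the tissues gave 1 for sorafenib (2) and changed no other call count beyond 1.5 times.

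With 1 rat left out, the ranges were 15 to 31 for sorafenib in marrow at 24 h, 1 (without 6M71) to 7 (without 6M72) in temsirolimus rats, 0 to 25 (without 4M46) for temsirolimus in marrow at 6 h, 3 (without 3M35) to 6 in liver at 24 h and 5 to 23 (without 7M77) in rats given an oral drug, 0 to 70 (without 7M77) for sunitinib in liver at 24 h and 0 to 1 at 6 h. In heart they were 0 to 9 (without 4M45) for temsirolimus at 6 h, 0 to 1 at 24 h, 0 to 1 and 0 to 4 for sunitinib at 6 and 24 h, and 0 to 5 (without 8M91) and 0 to 1 for sorafenib at 1 and 6 h. For time they were 0 to 1 in marrow and heart and 0 to 4 in liver, and between tissues 1 to 4 for temsirolimus, 0 to 28 for sunitinib and 0 to 2 for sorafenib. Arrays have no depth to report.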
